A study of Mus musculus with 24 samples.

Results

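The microRNA (miRNA) miR-21a was followed in 3T9 cells, a mouse fibroblast line grown without limit in culture, through both mature strands that its hairpin gives, mmu-miR-21a-5p and mmu-miR-21a-3p (miR-21a-5p and miR-21a-3p in what follows). The members are these 2 of the 1221 mature miRNA names in the deposited counts, each taken as the sum of its non-overlapping isoform classes. Newly made RNA had been marked with 4-thiouridine (4SU), a uridine analogue with a thiol group to which biotin can be attached. The pulse was 300 µM 4SU for 3 h and the chase was 1 mM uridine. In each of 3 experiments, biotinylated RNA was purified on streptavidin beads when the chase had run for 0, 2, 4, 6, 8, 10 and 12 h. These 21 labelled libraries were joined by 3 controls with 1 library each and so no replicates. They were total RNA of 4SU-pulsed cells, total RNA of unlabelled cells, and a streptavidin extraction of RNA that held no 4SU (the negative extraction). All groups are of one line, with no gene altered, and the series design calls the 3 experiments independent biological replicates.

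miRNA hairpins are cut from longer transcripts by Drosha in the nucleus and by Dicer in the cytoplasm. One strand of the resulting duplex, the guide, is held by an Argonaute protein and represses messenger RNAs that pair with its seed, while the other strand, the passenger, is usually released. miR-21 is an abundant miRNA of fibroblasts and of many tumours. It is known for repressing Pdcd4, an inhibitor of translation, and for promoting fibrosis. The 5p strand is the usual guide. In human cells the polymerase PAPD5 is known to add adenosine to the 3′ end of miR-21, and the exonuclease PARN to trim it.

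The mature sequences are shown because the strands differ in seed, in uridine content and in where their ends were found, and because miR-21b and miR-21c resemble miR-21a-5p. They are RefSeq sequences (GRCm38.p6), written 5′ to 3′, and capitals mark the seed, bases 2 to 8.
miR-21a-5p: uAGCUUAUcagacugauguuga
miR-21a-3p: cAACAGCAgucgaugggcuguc
miR-21b: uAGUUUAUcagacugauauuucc
miR-21c: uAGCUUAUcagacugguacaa
The strands of miR-21a share no seed, and miR-21a-5p has 8 uridines against 4 in miR-21a-3p. miR-21c has the seed of miR-21a-5p and the same bases up to position 15, with A16G, G18A, U19C, U20A and G21A after it (miR-21a-5p base first, counted from 1 at the 5′ end). miR-21b differs within the seed, by C4U, and further along by G18A, G21U and A22C. Neither miR-21b nor miR-21c has an entry of its name in the table used here. How reads that match several miRNAs were assigned is not given in the sources used here, so reads of shortened forms of miR-21c could stand under miR-21a-5p.

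miR-21a-5p maps to chr11:86584120-86584141 and miR-21a-3p to chr11:86584082-86584103, both on the minus strand. Their gene Mir21a (chr11:86584067-86584158) lies in an annotated exon of Vmp1, a gene for an autophagy protein on the same strand, in the part of that exon that is 3′ untranslated region (GENCODE M21). In the hairpin, the base that follows the 5p sequence is C and the base that follows the 3p sequence is U.

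Library totals, as summed miRNA counts, were 1133048 to 7886484 in the labelled libraries, 4525638 in total 4SU RNA, 6412428 in total unlabelled RNA and 283922 in the negative extraction. Fibroblast marker miRNAs (5 of 5 with entries) summed to 57206 to 151797 CPM (counts rescaled so that all library totals are equal) in the labelled libraries. Most of this was miR-143-3p, at a labelled mean of 94664 CPM, while miR-145a-5p had 347 CPM. Blood markers summed to 185 to 734 CPM, nearly all of it miR-486a-5p, and epithelial markers to 201 to 1151 CPM, nearly all of it miR-205-5p. The epithelial sum was 371 ± 144 CPM at 12 h and 713 ± 402 CPM at 0 h (SD, n = 3 each), 33.1 CPM in total 4SU RNA, 186 CPM in total unlabelled RNA and 740 CPM in the negative extraction. miR-205-5p had a slope of -0.05 log2 per hour (edgeR adjusted p = 0.348, and 0.00032 with the experiment as a block), and its part in other slopes was not tested. Muscle markers summed to 1.77 to 22.1 CPM and neural markers to 240 to 516 CPM, nearly all of the latter miR-128-3p. miR-1a-3p and miR-124-3p were at 0 in every labelled library. Each experiment carries a code of its own in the second header line, which experiment 1 shares with the negative extraction. Both total RNA libraries have a further code, so experiment and code coincide, and labelled and total RNA were never read under one code. CPM are shares of the pool that was sequenced, and no spike-in enters, so a change over the chase is relative to the other miRNAs and gives no half-life.

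miR-21a-5p was among the most abundant miRNAs of labelled RNA, ranking between place 3 and place 7 with 4.37 to 9.79% of all miRNA counts. At 0 h it had 43680, 54953 and 67760 CPM in experiments 1, 2 and 3, and at 2 h 48403, 52890 and 70191 CPM. It had 63650, 56062 and 76234 CPM at 4 h and 61820, 74126 and 80184 CPM at 6 h. At 8 h its level was 66974, 82524 and 62652 CPM. The level at 10 h was 67967, 90100 and 67840 CPM, and at 12 h it was 55731, 97914 and 78525 CPM. Every experiment was higher at 12 h than at 0 h, but the ranges of the 3 experiments overlapped between these times. Means were 55464 ± 12048 CPM at 0 h, 72043 ± 9358 CPM at 6 h and 77390 ± 21114 CPM at 12 h (SD, n = 3 each). In the order of the means, which was 12, 10, 6, 8, 4, 2 and 0 h from high to low, the ranges of all neighbouring times overlapped.

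The controls bracketed these levels. miR-21a-5p had 110089 CPM in total 4SU RNA and 134101 CPM in total unlabelled RNA, above each of the 21 labelled libraries. The negative extraction held 34193 CPM (9708 counts), below each labelled library. The labelled level at 0 h was 1.60-fold that of the negative extraction (log2 0.67, place 172 of 414, where the median miRNA was at 0.34). At 12 h it was 2.20-fold (log2 1.14, place 97, beside a median of 0.08). The amounts of RNA recovered are not in the files used here, so the background could not be subtracted.

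miR-21a-3p was of middling abundance, ranking between place 110 and place 155 on 111 to 1035 counts. It had 134, 157 and 124 CPM in experiments 1, 2 and 3 at 0 h, 75.8, 97.6 and 142 CPM at 2 h, and 117, 70.7 and 116 CPM at 4 h. At 6 h it had 154, 147 and 138 CPM, and at 8 h 153, 177 and 98.3 CPM. It had 182, 149 and 109 CPM at 10 h and 185, 156 and 125 CPM at 12 h. The lowest values, 70.7 and 75.8 CPM, stood at 4 h and 2 h, and the highest, 182 and 185 CPM, at 10 h and 12 h, both in experiment 1. Means were 138 ± 17.0 CPM at 0 h, 101 ± 26.2 CPM at 4 h and 156 ± 30.1 CPM at 12 h (SD, n = 3 each), and again the ranges of all neighbouring times in the order of the means overlapped. The total RNA controls differed from labelled RNA far more than the times did. Total 4SU RNA held 1649 CPM and total unlabelled RNA 1419 CPM, while the negative extraction held 52.8 CPM on 15 counts, with an exact (Clopper-Pearson) 95% interval of 29.6 to 87.1 CPM. The lowest labelled values, 70.7 and 75.8 CPM, lay within this interval. Labelled 3p at 0 h was 2.58-fold the level of the negative extraction (log2 1.37, place 103 of 414, where the median miRNA was at 0.34). At 12 h it was 2.87-fold (log2 1.52, place 70, beside a median of 0.08). Without molecular identifiers in the reads, intervals like the one given include no more than the counting error.

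**Figure D1:**
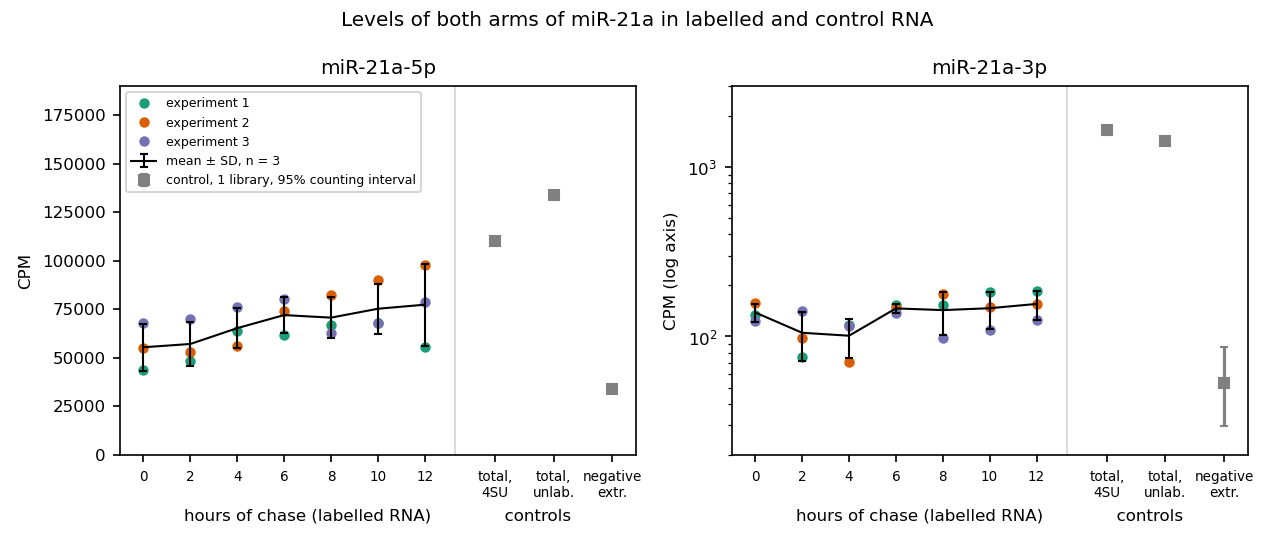
Levels of miR-21a-5p (left, CPM on a linear axis) and miR-21a-3p (right, CPM on a log axis) by hours of chase and in the 3 controls. Coloured points are experiments, the black line joins means ± SD (n = 3), and grey squares are single control libraries with 95% counting intervals. The 5p means are 77390 CPM at 12 h and 55464 CPM at 0 h, and labelled 3p stays between 70.7 and 185 CPM, under both total RNA libraries.

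The slope over the chase asks whether each strand gained or lost share among labelled miRNAs, the study's route to miRNA decay. miR-21a-5p rose by 0.06 log2 per hour (SE 0.0153, edgeR quasi-likelihood test with Benjamini-Hochberg adjustment, adjusted p = 0.00897), place 27 from the top of 414 tested miRNAs. Of these 414, 12.3% passed the threshold of 0.05 in either direction, 5.07% passed upwards and 7.25% downwards, and the median slope was -0.0037. With the experiment as a block, the adjusted p of miR-21a-5p was 1.54e-05 in edgeR's test, where 31.9% passed in either direction and 15.2% upwards. The slope of miR-21a-3p was 0.05 log2 per hour (SE 0.0182) and did not pass (edgeR adjusted p = 0.0613). It passed with the experiment as a block (0.05, SE 0.0158, edgeR adjusted p = 0.0142). Without experiment 2 the 5p slope was 0.04 (edgeR adjusted p = 0.0771), and without the 0 h libraries it was 0.06 (edgeR adjusted p = 0.107). Both passed in the blocked fits, with adjusted p of 0.00261 and 0.00114. The 3p slope was 0.03 without experiment 1 also in the blocked fit (edgeR adjusted p = 0.310).

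Within single experiments the slopes of miR-21a-5p were 0.054, 0.100 and 0.028 log2 per hour in experiments 1, 2 and 3. Those of miR-21a-3p were 0.094, 0.063 and 0.006. All 6 were above 0, with the steepest in experiment 2 for 5p and in experiment 1 for 3p. Library totals and normalisation factors moved with the chase. Totals were lower at 12 h than at 0 h in every experiment, and the TMM factors were 0.874 to 0.963 at 12 h against 1.05 to 1.13 at 0 h. Scaled by library totals alone, the slopes were 0.04 for 5p (edgeR adjusted p = 0.0403) and 0.03 for 3p (edgeR adjusted p = 0.274). The part of depth in the slopes was not tested.

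The ends of the chase were also compared directly. miR-21a-5p was 1.66-fold higher at 12 h than at 0 h (log2 0.73, SE 0.259), which did not pass (edgeR adjusted p = 0.152; 1.21% of the 414 passed). It passed with the experiment as a block (log2 0.72, SE 0.154, edgeR adjusted p = 0.00136), where 21.7% passed. For miR-21a-3p the log2 change was 0.41 (SE 0.281, edgeR adjusted p = 0.592), and with the block its adjusted p was 0.218. Neither strand passed for 2 h against 0 h, 6 h against 2 h or 12 h against 6 h. At 2 h against 0 h the log2 changes were 0.10 for 5p and -0.34 for 3p, and at 6 h against 2 h they were 0.38 and 0.51. No miRNA of the 414 passed in these 3 contrasts in edgeR's test, and 10, 5 and 15 had an unadjusted p under 0.05, while blocked fits called 14 (3.38%), 3 (0.725%) and 9 (2.17%).

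A break of slope at 4 h was not detected for either strand. The change at 4 h was -0.04 log2 per hour for 5p (SE 0.0676) and 0.12 for 3p (SE 0.0795), both with an edgeR adjusted p of 0.996. No miRNA passed there, 20 had an unadjusted p under 0.05, and the blocked fit called 18 (4.35%), with neither strand of miR-21a among them (adjusted p of 0.704 and 0.459). From 4 h on, the slope of 3p was 0.09 log2 per hour and that of 5p 0.05. In the blocked fit these late slopes passed for both strands (edgeR adjusted p = 0.0215 and 0.0389, with 6.04% of the 414 passing upwards), while without the block their edgeR adjusted p were 0.192 and 0.542 and 0.966% passed upwards.

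The arm ratio compares both strands within one library, so library scaling cancels. At 0 h there were 326, 349 and 546 counts of 5p per count of 3p in experiments 1, 2 and 3. At 4 h there were 545, 793 and 660, and at 12 h 301, 627 and 627. Means over the chase were 407, 558, 666, 496, 513, 534 and 518 from 0 to 12 h. The ratio was highest at 4 h, where the 3p level was lowest, and no steady course followed. The slope of log2 of 3p over 5p was -0.0063 per hour (SE 0.018, two-sided permutation test of hours within experiments with 100000 resamples, p = 0.728), and the experiments differed in sign, with 0.040, -0.037 and -0.022.

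The total RNA libraries had far fewer 5p counts per 3p count, 66.8 in total 4SU RNA and 94.5 in total unlabelled RNA. Their ratios lie below every labelled library, the lowest of which had 301. In the negative extraction the ratio was 647, on 15 counts of 3p. On the log2 scale, 3p over 5p in labelled RNA at 0 h differed by -2.32 from the mean of both total RNA libraries. Over 102 hairpins with both strands tested, this difference was taken for the minor strand over the major. Its median was 0.34, and miR-21a, where 3p is the minor strand, stood at place 6 from the lowest. The minor strand was the one with fewer counts in these same total RNA libraries. That choice can itself raise the difference: the log2 ratio was below 0 for 101 hairpins in total RNA and for 88 at 0 h. From 0 h to 12 h the log2 ratio of the minor strand over the major moved by -0.31 for miR-21a, close to the median of -0.28.

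**Figure D2:**
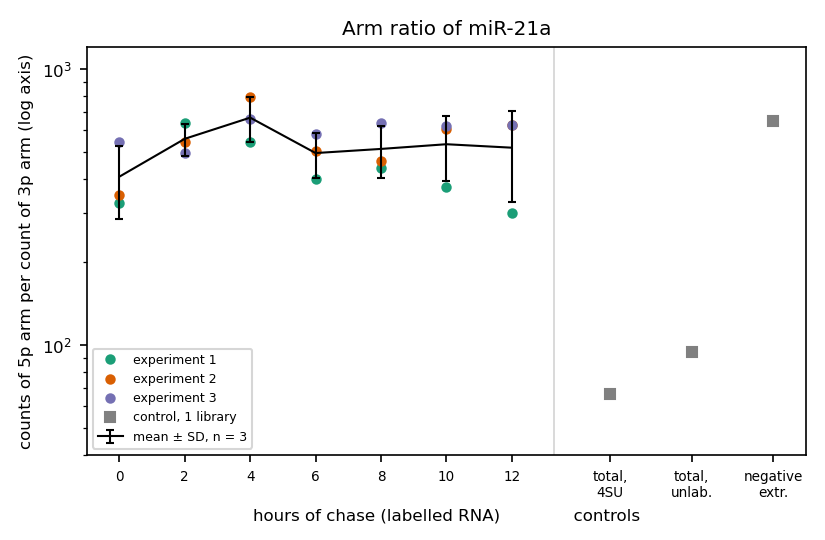
Counts of miR-21a-5p per count of miR-21a-3p (log axis) by hours of chase and in the controls. Coloured points are experiments, the black line joins means ± SD (n = 3), and grey squares are single control libraries. All 21 labelled libraries lie at 301 or more, while the total RNA libraries lie at 66.8 and 94.5.

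Both strands were lower in labelled than in total RNA, by unequal amounts. Labelled RNA at 0 h had 2.02-fold less miR-21a-5p than total 4SU RNA (log2 -1.01, place 321 of 414, where the median miRNA was at -0.02). For miR-21a-3p it had 11.9-fold less (log2 -3.57, place 405 of 414). Against total unlabelled RNA the values were -1.30 for 5p and -3.36 for 3p, beside a median of 0.24. At 12 h the differences from total 4SU RNA were -0.55 for 5p and -3.42 for 3p, beside a median of -0.43. Both total RNA controls are single libraries read under another code than the labelled ones, so no test was possible. Preparation and code cannot be told apart from the labelling.

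The isoform classes of miR-21a-5p were led by longer forms. Over the 21 labelled libraries the class with templated extension at the 3′ end held a mean of 65.1% of the counts (range 57.4 to 70.9%), and the canonical sequence 17.1% (9.58 to 26.7%). Forms with non-templated bases at the 3′ end held 15.7%, of which the form with C held 13.6% and the mixed form 2.03%. Trimmed forms held 1.58% and forms extended at the 5′ end 0.474%. The form with A held 0.103%, and that with U 0.0404%. Whether an A added after another base was counted in the form with A or in the mixed form is not given in the sources used here. The same class led in the controls: the templated extension held 62.2% in total 4SU RNA, 64.2% in total unlabelled RNA and 60.1% in the negative extraction. How a C was called non-templated, where the base that follows in the hairpin is also C, is not given in the sources used here.

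miR-21a-3p had the opposite make-up. Trimmed forms held a mean of 94.0% of its counts over the labelled libraries (range 78.1 to 99.4%), the canonical sequence 3.55% and the templated 3′ extension 2.02%. Total 4SU RNA had 85.0% trimmed forms and 11.3% canonical sequence, and total unlabelled RNA 87.8% and 8.31%. The negative extraction had 12 trimmed counts among its 15.

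**Figure D3:**
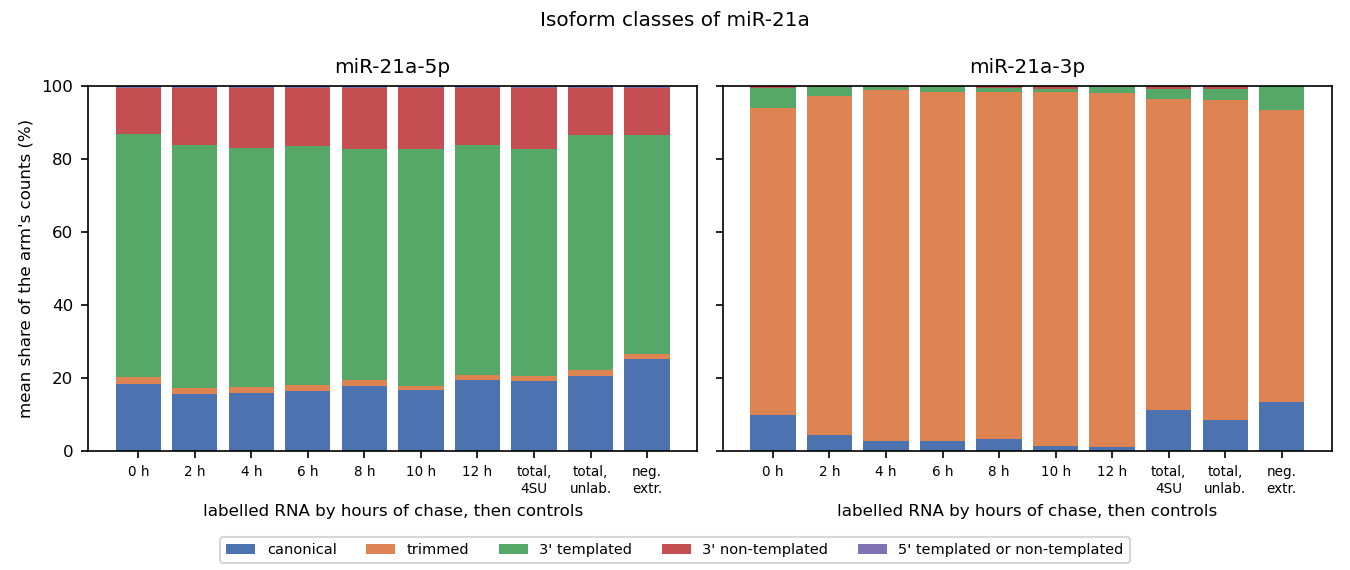
Mean share of each isoform class in the counts of miR-21a-5p (left) and miR-21a-3p (right), in percent, for labelled RNA by hours of chase (n = 3 each) and the single control libraries. Templated 3′ extension leads throughout in 5p, and trimmed forms lead in 3p, where the canonical share is 0.951% at 12 h and 9.71% at 0 h.

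The untrimmed share of miR-21a-3p fell over the chase. The canonical sequence made up 12.7, 10.5 and 5.93% of its counts at 0 h in experiments 1, 2 and 3. At 2 h the shares were 5.69, 4.2 and 2.75%, and at 12 h they were 1.97, 0.565 and 0.315%. Every experiment was lower at 2 h than at 0 h and lower again at 12 h, and the ranges at 12 h and 0 h did not overlap. The fall was not steady in between, with means of 2.80% at 4 h, 2.68% at 6 h and 3.17% at 8 h. The share fell by 0.565 percentage points per hour (SE 0.112, permutation test, adjusted p = 4.5e-05 over 9 share tests, from the smallest p that 100000 resamples can give), with negative slopes in all 3 experiments. Without the 0 h libraries the slope was -0.289 (permutation test, adjusted p = 0.00803). Depth limits the late values, which rest on 12, 1 and 1 canonical counts at 12 h against 131, 50 and 34 at 0 h.

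The trimmed share rose by 0.817 percentage points per hour (SE 0.194, permutation test, adjusted p = 0.0003), and by 0.337 without the 0 h libraries (adjusted p = 0.0345). It was 95.4, 97.7 and 98.1% at 12 h against 78.1, 83.4 and 91.4% at 0 h in experiments 1, 2 and 3. The share with templated 3′ extension fell by 0.257 percentage points per hour (SE 0.0823, permutation test, adjusted p = 0.00314), but its slope was -0.19 without experiment 1 (permutation test, adjusted p = 0.0752) and -0.067 without the 0 h libraries (permutation test, adjusted p = 0.291). All untrimmed forms together were 4.61, 2.26 and 1.89% at 12 h against 21.9, 16.6 and 8.55% at 0 h. The largest step between neighbouring times was the first, with a mean of 7.09% ± 2.45 at 2 h against 15.7% ± 6.74 at 0 h (SD, n = 3 each). Total 4SU RNA, at 15.0% untrimmed, and total unlabelled RNA, at 12.2%, were nearer to the start of the chase than to its end.

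**Figure D4:**
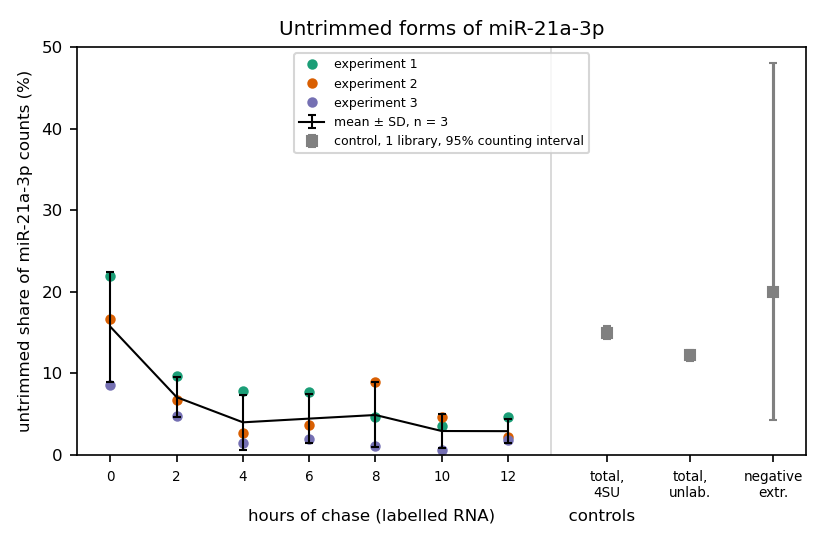
Share of untrimmed forms in the counts of miR-21a-3p (percent, linear axis) by hours of chase and in the controls. Coloured points are experiments, the black line joins means ± SD (n = 3), and grey squares are single controls with 95% counting intervals. The mean is 2.92% at 12 h and 15.7% at 0 h, and the total RNA libraries stand at 15.0 and 12.2%.

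In levels, the same forms parted. The canonical 3p sequence had 3.66, 0.883 and 0.395 CPM at 12 h against 16.9, 16.6 and 7.37 CPM at 0 h in experiments 1, 2 and 3. Trimmed 3p had 177, 153 and 123 CPM at 12 h against 104, 131 and 114 CPM at 0 h. Every experiment thus had less canonical and more trimmed 3p at the end than at the start. The negative extraction held 7.04 CPM of canonical 3p, on 2 counts, above the labelled means from 2 h on (1.64 to 5.16 CPM). Among 1257 isoform entries tested together, of which 10.4% passed, the canonical 3p entry fell by 0.18 log2 per hour (SE 0.0529, edgeR adjusted p = 0.0271). The trimmed 3p entry rose by 0.06 per hour (SE 0.0172, edgeR adjusted p = 0.0263). With the experiment as a block the edgeR adjusted p were 0.000187 and 0.00239. Neither call held without experiment 1 (canonical slope -0.20, edgeR adjusted p = 0.157; trimmed slope 0.04, adjusted p = 0.395) or without experiment 3 (canonical slope -0.16, edgeR adjusted p = 0.0909; trimmed slope 0.08, adjusted p = 0.0703). The trimmed slope on library totals was 0.05 (edgeR adjusted p = 0.0977). Of 207 miRNAs with both entries tested, miR-21a-3p had the largest excess of the trimmed over the canonical slope, 0.24 log2 per hour, where the median was 0.013. miR-21a-5p stood at place 195 with -0.06.

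The arm ratio depended on which form was counted. With canonical counts of both strands, log2 of 3p over 5p had a slope of -0.25 per hour (permutation test, p = 1e-05, the smallest that 100000 resamples could give), and with trimmed counts of both strands 0.05 (permutation test, p = 0.00064). The trimmed comparison was not planned beforehand, and trimmed forms held a mean of 94.0% of labelled 3p counts but 1.58% of 5p counts. The canonical 3p level, used in place of the sum of classes, gave a slope of -0.18 log2 per hour (edgeR adjusted p = 0.028), against 0.05 for the sum.

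In miR-21a-5p the share of the mixed 3′ form was 2.20, 2.70 and 2.48% at 12 h against 1.78, 1.66 and 1.87% at 0 h in experiments 1, 2 and 3, so the ranges did not overlap. It rose by 0.0707 percentage points per hour (SE 0.00884, permutation test, adjusted p = 4.5e-05). As an entry, it rose by 0.11 log2 per hour (SE 0.0166, edgeR adjusted p = 0.000225), place 20 of 1257, and passed without each experiment in turn. The share of templated 3′ extension fell by 0.305 percentage points per hour (SE 0.0724, permutation test, adjusted p = 0.00036), and the trimmed share fell by 0.0480 (SE 0.0103, permutation test, adjusted p = 0.000337; -0.0308 without the 0 h libraries, adjusted p = 0.0345). The templated share was 57.4, 69.4 and 61.6% at 12 h against 64.0, 70.2 and 65.0% at 0 h, lower at 12 h in every experiment although the ranges overlapped. Permuting hours over all libraries instead of within experiments, neither the templated nor the trimmed share passed (adjusted p = 0.172 for both).

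Non-templated 3′ forms of miR-21a-5p, summed, rose by 0.218 percentage points per hour (SE 0.0685, permutation test, adjusted p = 0.00314). They held 13.4, 17.6 and 16.6% at 12 h against 10.7, 12.5 and 15.1% at 0 h, and the step came early, with 12.3, 17.6 and 16.9% at 2 h. Without the 0 h libraries the slope was 0.050 (permutation test, adjusted p = 0.343), without experiment 1 it was 0.22 (adjusted p = 0.0588), and with hours permuted over all libraries its adjusted p was 0.172. The share of the C form had a slope of 0.147 (permutation test, adjusted p = 0.0594) and that of the canonical sequence 0.142 (adjusted p = 0.184). Of the 9 shares tested, 7 passed. Shares of one strand are parts of one whole and so not independent, and other miRNAs' shares were not tested beside them.

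Of the isoform entries, 10 of the 14 used of miR-21a-5p and 3 of the 9 used of miR-21a-3p had enough counts to be tested. Besides the mixed form, the canonical entry of 5p rose by 0.06 log2 per hour (edgeR adjusted p = 0.0205), and so did the 3′ form with U (edgeR adjusted p = 0.044). The negative extraction held 49.3 CPM of the U form, on 14 counts, above every labelled mean (20.1 to 31.9 CPM). The U form, on 27 to 202 counts, did not pass without experiment 1, 2 or 3 or on library totals (edgeR adjusted p of 0.108 to 0.211). The canonical entry did not pass without experiment 1 or 3 (0.06 and 0.07, edgeR adjusted p = 0.138 and 0.0891) or on library totals (0.05, adjusted p = 0.108). The 3′ forms with C and with A both had slopes of 0.07, with edgeR adjusted p of 0.0701 and 0.0596, and passed with the block (2.55e-05 and 0.000437). The templated 3′ extension of 5p had 0.05 (edgeR adjusted p = 0.0509, and 0.000325 with the block). Its templated 5′ extension had 0.03 (edgeR adjusted p = 0.134, and 0.0127 with the block). For the templated 3′ extension of miR-21a-3p the slope was -0.12 (edgeR adjusted p = 0.211, and 0.03 with the block). Trimmed 5p had a slope of 0.00 and the G form 0.01, with edgeR adjusted p of 0.95 and 0.894. Altogether 5 of the 13 entries passed, where 10.4% of all 1257 entries passed. With the block 10 passed, where 28.1% of all entries did.

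**Figure D5:**
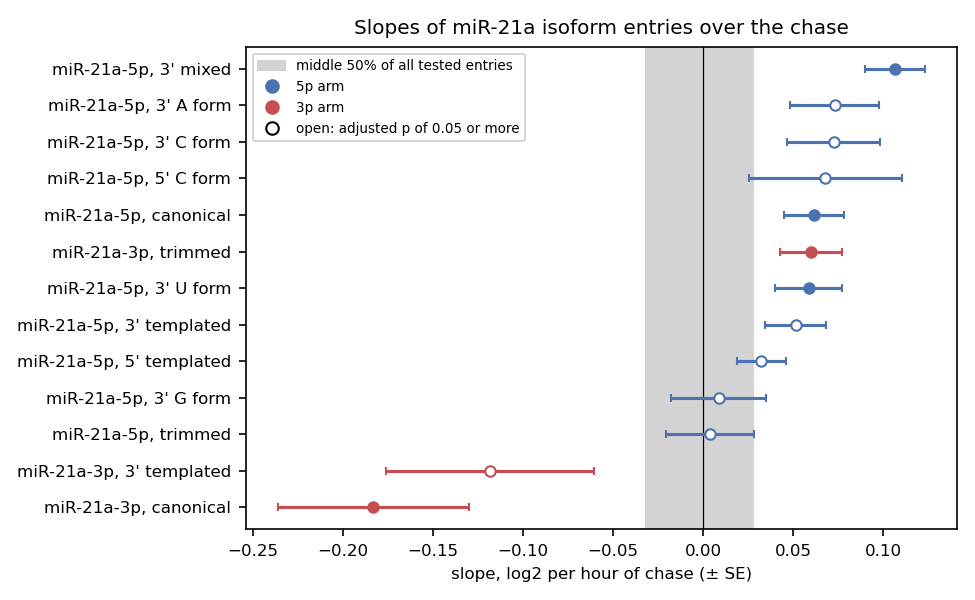
Slopes over the chase of the 13 tested isoform entries of miR-21a, in log2 per hour ± SE, with 5p entries in blue and 3p entries in red. Filled points passed edgeR's test at an adjusted p under 0.05, and the grey band holds the middle 50% of the slopes of all 1257 entries, -0.032 to 0.028. The canonical 3p entry lies lowest at -0.18, and the mixed 3′ form of 5p highest at 0.11.

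The miRNAs whose levels ran most like each strand were listed by Pearson's r of log2 CPM over the 21 labelled libraries, as a description, since these points share libraries and experiments. For miR-21a-5p they were miR-192-5p (r 0.85), miR-92a-3p (0.79), miR-149-5p (0.77), miR-6539 (0.76) and miR-3061-3p (0.75). For miR-21a-3p they were miR-301b-3p (0.72), miR-6948-3p (0.72), miR-450b-5p (0.71), miR-19b-3p (0.68) and miR-19a-3p (0.67). The strands themselves had r 0.53. With each experiment's mean removed, none of the 5 miRNAs listed for 5p stayed among its top 5 (0 shared), 3 of the 5 for 3p did, and the strands had r 0.65.

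Among 6 miRNAs reported to promote fibrosis, all tested, miR-21a-5p itself was the 1 that rose, where 5.07% of the 414 rose. miR-214-3p was the 1 that fell, by 0.11 log2 per hour (edgeR adjusted p = 0.0311), where 7.25% fell. The median slope of these 6 was 0.0021, beside -0.0037 for all 414. Of 10 miRNAs reported to restrain fibrosis, 6 were tested and 1 rose, beside the same 5.07%: miR-29c-3p, whose family represses collagen genes, with 0.11 per hour (edgeR adjusted p = 0.0211). The median slope of these 6, without the block, was 0.0233. With the block 3 rose, where 15.2% of the 414 rose. At 12 h and 0 h, miR-29c-3p had 10.9 ± 3.66 and 5.14 ± 1.66 CPM and miR-214-3p 733 ± 407 and 2214 ± 1265 CPM (SD, n = 3 each). Of the abundant other members, miR-26a-5p had a slope of -0.0017 (edgeR adjusted p = 0.967), miR-30c-5p of 0.0066 (adjusted p = 0.795) and miR-199a-5p of 0.02 (adjusted p = 0.724), and none of these passed. miR-29a-3p, at 0.04 (edgeR adjusted p = 0.0593), passed with the block (edgeR adjusted p = 0.000733).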

How the data were processed

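Small RNA libraries of 3T9 cells (24 libraries) were counted by the authors, who deposited raw read counts per isoform entry, with no normalisation. The submitters' processing notes name CASAVA 1.8.0. No aligner, annotation or isoform definition is given in the sources used here. The table held 7129 entries of 20 class suffixes, and 1 repeated entry was removed. Totals of non-templated additions equalled the sum of their parts in 25728 of 25728 cells, so 8 non-overlapping classes were summed per miRNA. CPM were computed from library totals (1133048 to 7886484 counts in labelled RNA). A floor of 3 counts was expressed as CPM for each library, while shares and CPM at 0 were kept at 0.

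Slopes and contrasts over the 21 labelled libraries came from the quasi-likelihood test of edgeR 4.0.16 in R 4.3.3 (TMM scaling, filterByExpr by time), fitted to 414 miRNAs or 1257 isoform entries. Benjamini-Hochberg adjusted p under 0.05 were called. Arm ratios (pseudocount of 0.5 counts) and class shares averaging at least 1% were tested by permuting hours within experiments (100000 resamples, two-sided). Control libraries were compared without a test, with a pseudocount of 1 CPM. The edgeR test without the block was tried on simulated counts, drawn with one fixed spread and no difference between experiments. At a slope of 0.05 log2 per hour it called 44 of 99 changed miRNAs and 34 of 92 changed entries. At 0.15 it called 100 of 100 and 98 of 98, and at 0 it called 5 of 206 and 4 of 1006. The real libraries do differ by experiment, so these rates need not hold for them.

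The experiment numbers in the labels pair the libraries: deviations from the time means correlated at 0.311 to 0.738 in all 63 pairs of one experiment, against -0.647 to 0.227 in 126 pairs of different experiments and times. Blocked values therefore stand beside results they changed. Alternatives were scaling (DESeq2 1.42.0 size factors, upper quartile, totals), filters, DESeq2, limma-voom (limma 3.58.1), single forms, and leaving out libraries, experiments or times. The named miRNAs were both strands with their isoforms, names sharing a seed or the miR-21 stem, the 5 most correlated miRNAs per strand, and from the lists those past the threshold for the slope and up to 4 others of highest level. The members and lists were chosen with earlier results of these data known. One list is not reported here.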

Additional observations from a re-analysis of the deposited data

How the results depend on the processing

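Limits: the slope of miR-21a-5p kept its direction under every alternative run and lost its call in 2, both given with the results (0.0568 without 0 h, 0.0424 without experiment 2). Leaving out 1 library at a time it was 0.0525 to 0.0696 and passed in 21 of 21 fits, and leaving out 1 experiment it was 0.0424 to 0.0788. That of miR-21a-3p passed with the replicate block (0.0503), with upper-quartile scaling (0.061), and without 0 h in the blocked fit (0.0762). It ranged from 0.0426 to 0.0626 without 1 library, where 1 of 21 fits passed (without experiment 2 at 0 h), and from 0.0297 to 0.0682 without 1 experiment (blocked fits passed without experiment 2, at 0.0533, and 3, at 0.0688), and was reversed on canonical counts (-0.178). The change of miR-21a-5p at 12 h against 0 h passed with the block (0.72), with totals and block (0.475), and in the blocked fits without experiment 1, 2 or 3 (0.739, 0.556 and 0.849). Without the block it was 0.538 to 0.897 when 1 experiment was left out and 0.527 to 0.904 when 1 library was.

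The arm ratio slope was reversed without 0 h (0.0266) and on trimmed counts (0.0494), reached -0.253 on canonical counts, and was -0.0294 to 0.0091 without 1 experiment or library. The change of slope of 5p at 4 h was -0.0938 to 0.0064 when 1 library or experiment was left out. The canonical share of 5p was reversed without 12 h (-0.0105), but passed without 0 h (0.340), without experiment 2 (0.243) and without the 0 h library of experiment 2 (0.242), and was 0.060 to 0.242 without 1 library. The share of its C form was reversed without 0 h (-0.0397), passed without 12 h (0.268), and passed in 4 of 21 fits without 1 library (0.0656 to 0.196). Without the block 4 shares passed instead of 7, and 5 to 8 passed without 1 library or experiment. Isoform entries of miR-21a passing numbered 10 with the block, 2 on library totals and 1 to 4 without 1 experiment. The calls over all miRNAs' entries moved too, from 131 to 353 with the block and 150 on library totals. They numbered 68, 212 and 28 without experiments 1, 2 and 3. On library totals the slopes of G-form and trimmed 5p were -0.0054 and -0.0112, and without 1 experiment -0.0092 to 0.0213 and -0.0061 to 0.0215. With TMM over all libraries, 3p at 0 h was -3.40 against total 4SU RNA and 1.19 against the negative extraction. At 12 h against total 4SU RNA, 5p was -0.13 and 3p -2.997, and 3p in total 4SU against total unlabelled RNA was -0.0491, where totals gave 0.22. Called miRNAs for the slope numbered 51, 132 with the block, 14 without 0 h, 21 without 12 h, 15 to 79 without 1 experiment (83 to 148 with the block) and 29 to 54 without 1 library. The cause of these shifts was not tested.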

Other observations

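Uridine content, which sets how many 4SU sites a strand can carry, was set beside labelling as a description. Of the 414 tested miRNAs 346 had a RefSeq mature sequence, with a median of 6 uridines and a range of 0 to 12. miR-21a-5p, with 8, and miR-21a-3p, with 4, lie on either side of the median, and 71 of the 346 had as few uridines as the 3p strand or fewer. Across these 346 miRNAs, which share all libraries and are not independent replicates, the number of uridines and log2 of labelled RNA at 0 h over total 4SU RNA had Pearson's r of -0.017 and Spearman's rho of 0.012. The part of uridine content in the labelled levels of either strand was not tested.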
